A study of Mus musculus with 16 samples.

Results

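Ribosome biogenesis genes encode the proteins that transcribe ribosomal RNA (rRNA), trim and modify it, and assemble it with ribosomal proteins into the 40S and 60S subunits. The members were a list of 44 genes, and each was read from its brightest probe set among those that the platform annotation ties to its symbol. Of these, 40 were on the array, out of 17097 genes in all, and all 40 were among the 14819 genes bright enough to test. Tsr1, Gnl3, Mybbp1a and Dcaf13 had no probe set annotated to them alone and were not analysed here.

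The study profiled dermal fibroblasts of female C57Bl/6 mice on Affymetrix arrays to ask how culture alters what differs between ages. Cells came from 4 young (2 months) and 4 old (18 months) animals, and from each one portion was profiled straight after isolation (in vivo) and another after culture. Each array measured RNA of 5000 cells, amplified for 23 cycles, which gave 4 arrays for each age in each condition (16 in all). No group carried a transgene or a drug treatment in the labels, and the sources used here do not give the medium, the passage number or the length of culture. Each mouse gave a fresh and a cultured sample, but which fresh and which cultured sample belong together is not in the labels, and 2 young and 2 old mice were taken per day without the days being assigned. The comparisons therefore treated the 16 arrays as independent.

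Ribosomes are built in the nucleolus. RNA polymerase I transcribes a long precursor rRNA, small nucleolar ribonucleoproteins (snoRNPs) guide its chemical modification and cleavage, the small-subunit processome folds and cuts the part that becomes the 40S subunit, and a separate set of factors assembles the 60S subunit. Cells that grow and divide make far more ribosomes than resting cells, and in skin most dermal fibroblasts are at rest until wounding or explantation.

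All values are log2 expression values, so a difference of 1 is 2-fold. Array medians lay between 4.83 and 4.92 on the fresh and between 4.74 and 4.76 on the cultured arrays, and no pair of arrays held identical values. The 95th percentile of the 12 poly-A control probe sets, a level that background signal can reach, was 4.34. Wdr75 was the only member with group means below it. Fibroblast markers were bright in fresh cells (mean of 10 markers 10.32 to 10.61 per array) and lower in culture (9.02 to 9.34), with 9 of 10 past the test. The mean of 11 cell division markers was 5.15 to 5.56 in fresh cells and 8.52 to 9.00 in culture, and 10 of 11 were higher there (median log2 difference 3.95). Macrophage markers averaged 4.72 to 4.89 in fresh and 4.16 to 4.27 in cultured cells, on either side of the control level, and 6 of 7 were lower in culture. The 5 T cell markers averaged 4.60 to 4.75 in fresh and 4.35 to 4.56 in cultured cells, and all 5 were lower in culture. Their median log2 difference was −0.19. Over all genes tested 34.8% were higher and 44.7% lower in culture, with a median log2 difference of −0.11. Of the markers of other skin cells that could be tested, 5 of 7 keratinocyte, 6 of 7 endothelial, 5 of 5 melanocyte, 2 of 3 Schwann cell and 1 of 4 pericyte markers were lower in culture, while 1 pericyte marker and the adipocyte marker Fabp4 were higher. The 3′ minus 5′ difference of Actb control probe sets, a sign of RNA quality and amplification, was −0.41 ± 0.07 in young and −0.46 ± 0.11 in old fresh cells against 0.07 ± 0.04 in young and 0.10 ± 0.07 in old cultured cells (SD, n = 4 each). These measures move with culture, and their part in the results on culture was not tested. In bulk samples fewer cells of a type and less RNA per cell cannot be told apart.

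Promoter windows from RefSeq (GRCm38.p6, 250 bases before to 50 after each annotated start, 300 in all) were found for 34 of the 40 members. Bop1, Fbl, Npm1, Rrp12, Rrs1 and Wdr36 had no entry. Windows were searched on both strands for the E-box CACGTG, a site of Myc-family factors, for TCGCGAGA, and for CCGGAAGT, an ETS-family site. Shares are of genes with a window, and a gene with several windows counted once if any of them matched. The E-box was in 5 of 34 members (14.7%), against 10.8% of genes tested on the array and 8.09% of all genes with a window. TCGCGAGA was in 3 members (8.82%), against 1.94% of tested genes and 1.13% of all genes with a window. CCGGAAGT was in 7 members (20.6%), against 7.33% of tested genes and 4.31% of all genes with a window. The median GC content, taken over windows, was 57.3% for members and 59.3% for tested genes. The 250 bases before the start are shown for 4 members, with the motif in capitals. Their responses to culture, described below, run from 0.56 (Nop2) to 2.53 (Nhp2) on the log2 scale. Utp18 and Nop2 share the E-box and lie far apart in their response to culture, and Nhp2 holds CCGGAAGT. Nop58 holds TCGCGAGA on the opposite strand, so the strand shown reads TCTCGCGA. The windows are chr11:93885767-93886016 on the minus strand (Utp18), chr6:125131633-125131882 on the plus strand (Nop2), chr11:51619523-51619772 on the plus strand (Nhp2) and chr1:59684756-59685005 on the plus strand (Nop58).
Utp18: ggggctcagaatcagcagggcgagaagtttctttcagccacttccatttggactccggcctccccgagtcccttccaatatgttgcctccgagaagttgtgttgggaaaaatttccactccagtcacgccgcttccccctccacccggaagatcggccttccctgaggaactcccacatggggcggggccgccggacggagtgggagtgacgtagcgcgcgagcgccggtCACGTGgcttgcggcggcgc
Nop2: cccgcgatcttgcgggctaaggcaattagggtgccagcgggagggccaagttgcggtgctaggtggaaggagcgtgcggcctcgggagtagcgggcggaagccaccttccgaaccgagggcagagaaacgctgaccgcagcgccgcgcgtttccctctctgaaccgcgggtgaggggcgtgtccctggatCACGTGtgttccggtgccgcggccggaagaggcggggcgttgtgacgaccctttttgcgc
Nhp2: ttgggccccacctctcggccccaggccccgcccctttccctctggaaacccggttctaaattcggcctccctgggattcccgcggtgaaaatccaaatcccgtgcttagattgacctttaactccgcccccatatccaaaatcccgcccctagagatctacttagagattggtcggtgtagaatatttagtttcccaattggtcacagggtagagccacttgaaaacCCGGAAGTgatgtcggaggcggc
Nop58: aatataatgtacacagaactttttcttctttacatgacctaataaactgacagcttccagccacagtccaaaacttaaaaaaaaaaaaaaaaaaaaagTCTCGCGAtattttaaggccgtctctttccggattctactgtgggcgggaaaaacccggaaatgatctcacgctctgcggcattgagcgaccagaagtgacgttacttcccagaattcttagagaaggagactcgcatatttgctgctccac
The E-box began 20 bases before the start in Utp18 and 60 before it in Nop2. The other E-boxes were in Imp4, Pes1 and Wdr43. Nop14 and Polr1c also held TCGCGAGA, and Polr1c, Ebna1bp2, Gar1, Heatr1, Noc2l and Wdr3 also held CCGGAAGT. A match is a description of the letters in the window and not a bound site.

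Nearly all of these genes were higher in cultured than in fresh fibroblasts. Averaged over both ages, 39 of 40 members rose in cultured cells at a Benjamini-Hochberg adjusted p under 0.05 in limma, none fell, and Ncl did not pass; among all genes tested 34.8% rose and 44.7% fell. Of those that rose, Wdr75 was bright enough to test only through its cultured arrays. The median member difference was 1.14 on the log2 scale, with a range of −0.29 to 2.99, against a median of −0.11 over all genes. A rise of at least 2-fold was seen in 22 members, against 13.3% of all genes. In 36 members every one of the 8 cultured arrays lay above every one of the 8 fresh arrays, a pattern held by 23.9% of all genes, and the 4 members whose groups overlapped were Nop10, Wdr75, Nop2 and Ncl. Scaling each array to its 75th percentile moved the median of all genes from −0.11 to −0.31 and that of the members to 0.94, with 39 members still above 0.

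**Figure D1:**
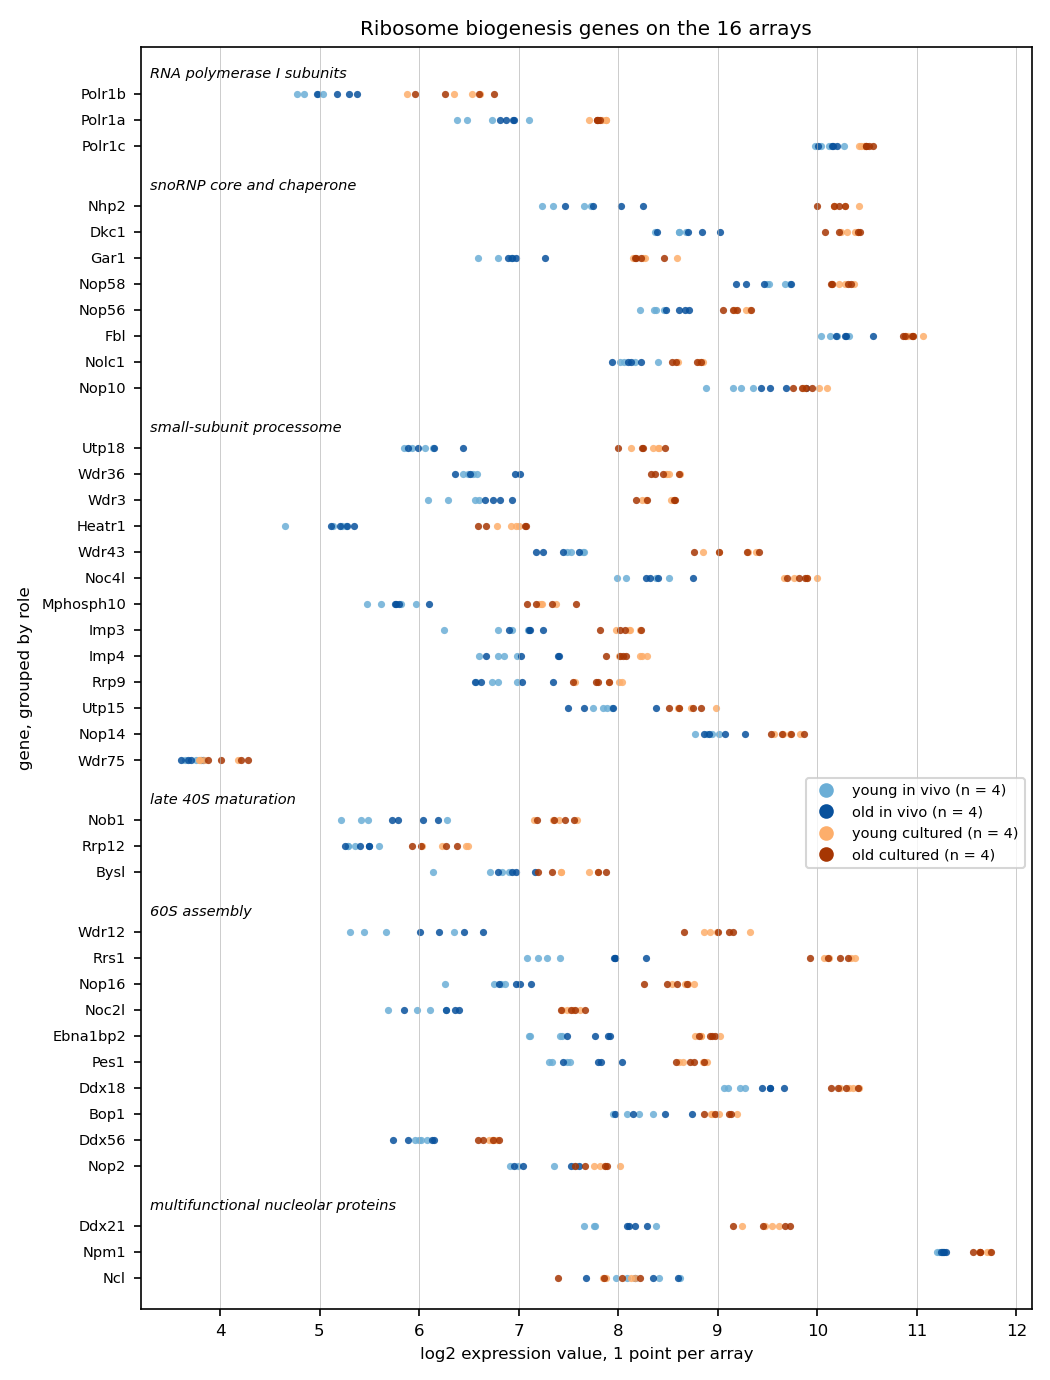
Log2 expression values (horizontal axis) of the 40 members, 1 point per array, grouped by role and coloured by group (4 arrays each). Cultured arrays lie to the right of fresh arrays without overlap in 36 members, and the fresh and cultured values of Ncl and of Wdr75 lie close together.

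Both ages showed the rise. In young cells 38 of 40 members were higher in culture (background 32.6%) with a median of 1.34, and in old cells 38 of 40 were higher (background 30.2%) with a median of 0.93. Wdr75 and Ncl did not pass in young cells (adjusted p 0.220 and 0.230), and Nop10 and Ncl did not pass in old cells (adjusted p 0.0868 and 0.166). No member fell in either age group, where 38.6% of all genes fell in young and 32.5% in old cells.

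**Figure D2:**
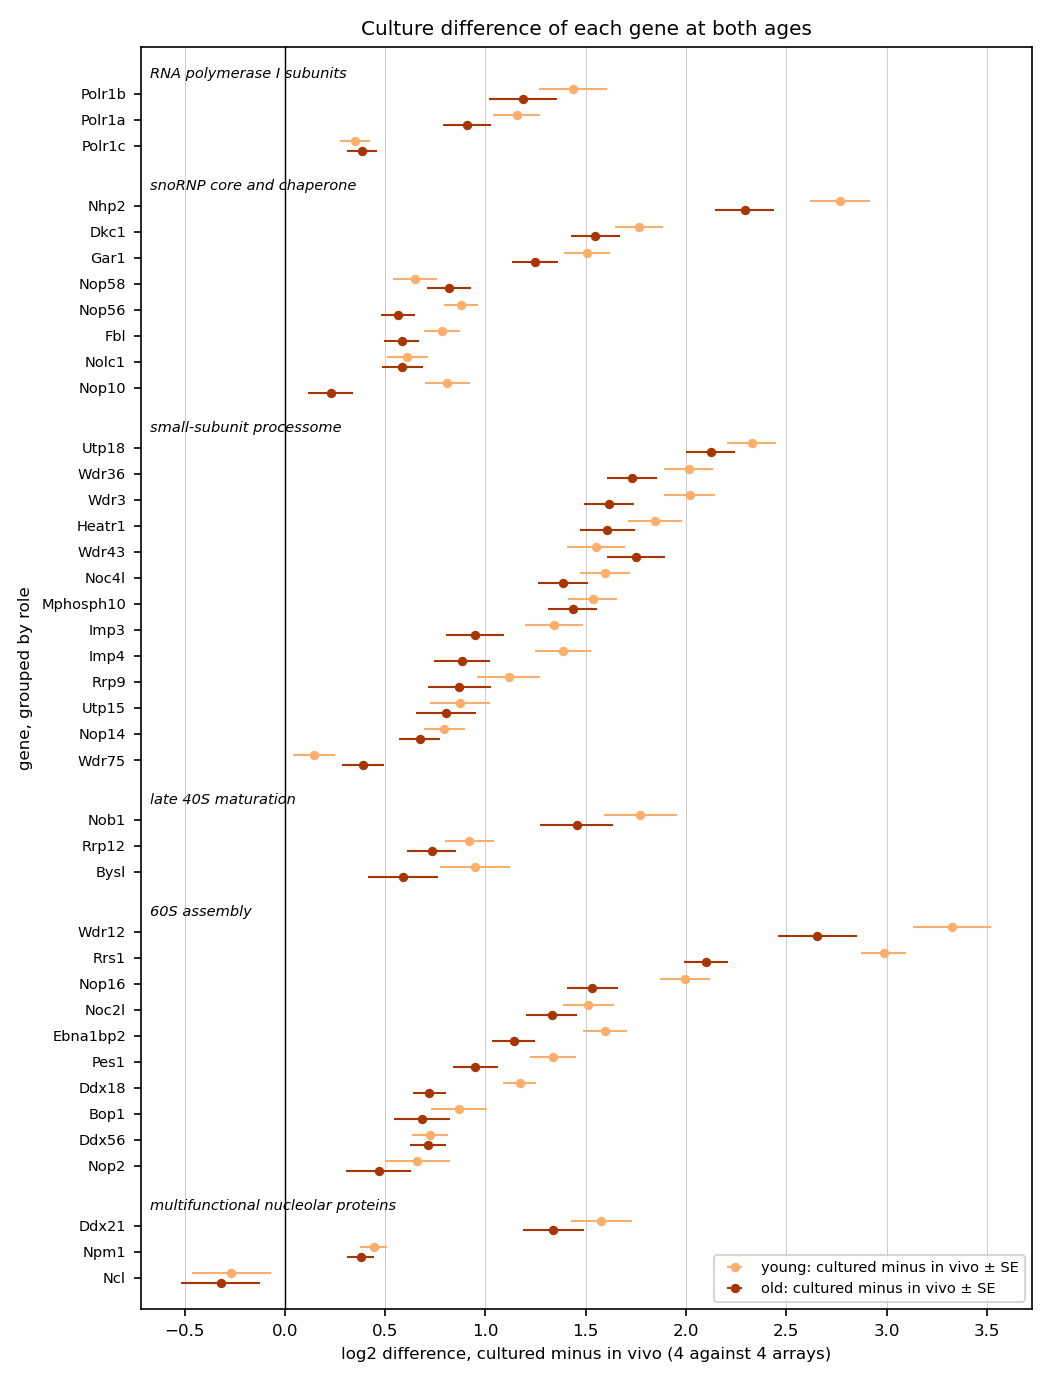
Log2 difference between cultured and fresh cells (horizontal axis) of each member in young and in old cells, with standard errors from limma (4 against 4 arrays). Most points lie right of 0, and the young value exceeds the old one for 36 of 40 members.

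The RNA polymerase I subunits rose in all 3 cases, by 0.37 to 1.31. Polr1b, a catalytic core subunit, was at 4.77, 4.84, 4.98 and 5.03 in young in vivo, 5.38, 5.30, 4.97 and 5.18 in old in vivo, 6.35, 5.88, 6.61 and 6.53 in young cultured and 5.96, 6.26, 6.60 and 6.75 in old cultured cells. All cultured arrays were above all fresh ones, and the difference was 1.31 ± 0.12 (SE, adjusted p 3.24e-08). Polr1a, the largest subunit, rose by 1.03 ± 0.08. Polr1c, shared with RNA polymerase III, gave 10.12, 10.04, 9.98 and 10.27 in young in vivo, 10.20, 10.16, 10.15 and 10.01 in old in vivo, 10.47, 10.44, 10.42 and 10.48 in young cultured and 10.49, 10.56, 10.49 and 10.52 in old cultured cells. These groups also did not overlap, but the step was small at 0.37 ± 0.05 (adjusted p 8.72e-06). With cyclic loess normalization the Polr1c difference was 0.06 and no longer passed (adjusted p 0.336). The other Polr1c probe set was dimmer (mean over all arrays 6.94 against 10.3). It rose by 0.80, with every cultured array above every fresh one.

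All 8 genes for snoRNP core proteins and their chaperone rose, with a median of 0.73. The proteins of the H/ACA class, which carries out pseudouridylation, spanned the whole range of this group. Nhp2, one of them, measured 7.66, 7.73, 7.23 and 7.35 in young in vivo, 7.47, 7.75, 8.03 and 8.25 in old in vivo, 10.17, 10.17, 10.28 and 10.42 in young cultured and 10.00, 10.28, 10.17 and 10.22 in old cultured cells. The lowest cultured array was well above the highest fresh one, a 5.78-fold rise (2.53 ± 0.10, adjusted p 1.04e-12). Dkc1, the pseudouridine synthase itself, rose by 1.66 ± 0.09 and Gar1 by 1.38 ± 0.08. Nop10, the smallest difference of the group, read 9.35, 8.88, 9.23 and 9.15 in young in vivo, 9.53, 9.43, 9.69 and 9.89 in old in vivo, 10.02, 9.87, 9.86 and 10.10 in young cultured and 9.76, 9.85, 9.95 and 9.89 in old cultured cells. Here the old fresh arrays reached into the cultured range, and the difference averaged over ages was 0.52 ± 0.08 (adjusted p 1.62e-05). The other Nop10 probe set was almost as bright (mean over all arrays 9.54 against 9.65). It rose by 1.18, with every cultured array above every fresh one. The box C/D proteins, which carry out ribose methylation, rose by similar amounts: Nop58 by 0.74 ± 0.08, Nop56 by 0.72 ± 0.06 and the methyltransferase Fbl by 0.68 ± 0.06. Nolc1, a snoRNP chaperone, rose by 0.60 ± 0.07.

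The small-subunit processome had 13 measured members, all of which rose, with a median of 1.49. Utp18, whose promoter is shown above, was at 6.14, 5.85, 5.93 and 6.06 in young in vivo, 5.99, 6.15, 6.44 and 5.89 in old in vivo, 8.41, 8.13, 8.35 and 8.40 in young cultured and 8.00, 8.47, 8.24 and 8.25 in old cultured cells. No fresh array came near the cultured ones, and the rise was 4.68-fold (2.23 ± 0.09, adjusted p 5.17e-13). Its partners in the UtpB complex rose too, Wdr36 by 1.87 ± 0.09 and Wdr3 by 1.82 ± 0.09. Among proteins of the UtpA complex, which binds the precursor first, Heatr1 rose by 1.73 ± 0.10, Wdr43 by 1.65 ± 0.10 and Utp15 by 0.84 ± 0.11. Wdr75, of the same complex, stayed dim: 3.76, 3.81, 3.65 and 3.81 in young in vivo, 3.71, 3.83, 3.68 and 3.61 in old in vivo, 3.79, 3.84, 3.80 and 4.18 in young cultured and 3.88, 4.21, 4.28 and 4.01 in old cultured cells. All these values lay under the control level of 4.34, the young groups overlapped, and the difference of 0.27 ± 0.07 (adjusted p 0.00369) fell to 0.07 (adjusted p 0.416) when arrays were scaled to their 75th percentile. No fresh array exceeded the brightness filter of 3.87. Wdr75 was thus tested only through its cultured arrays, so its count among the members that rose carries no weight. The Mpp10 complex, which holds the snoRNA and precursor together, rose in all 3 members: Mphosph10 by 1.49 ± 0.09, Imp3 by 1.15 ± 0.10 and Imp4 by 1.13 ± 0.10. Noc4l rose by 1.49 ± 0.09, Rrp9 by 0.99 ± 0.11 and Nop14 by 0.73 ± 0.07.

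All 3 late 40S maturation factors rose. Nob1, the nuclease that makes the last cut in the small-subunit rRNA, measured 5.49, 5.22, 5.42 and 6.28 in young in vivo, 6.19, 5.79, 5.73 and 6.04 in old in vivo, 7.15, 7.35, 7.41 and 7.59 in young cultured and 7.18, 7.47, 7.36 and 7.56 in old cultured cells. One young fresh array stood above its group but below every cultured array, and the difference was 1.61 ± 0.13 (adjusted p 5.13e-09). Bysl, a factor of the pre-40S particle, gave 6.83, 6.90, 6.14 and 6.71 in young in vivo, 6.97, 6.79, 7.16 and 6.93 in old in vivo, 7.43, 7.43, 7.71 and 7.80 in young cultured and 7.19, 7.34, 7.88 and 7.80 in old cultured cells. The fresh and cultured ranges only just separated on this probe set, by 0.77 ± 0.12 in the mean (adjusted p 2.71e-05). The other Bysl probe set was dimmer (mean over all arrays 6.67 against 7.19). It rose by 1.57, with every cultured array above every fresh one. Rrp12, which helps export both subunits, rose by 0.83 ± 0.09.

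All 10 genes of 60S assembly rose, with a median of 1.26. Wdr12 had the largest difference of any member, with values of 5.67, 6.35, 5.45 and 5.31 in young in vivo, 6.20, 6.45, 6.01 and 6.64 in old in vivo, 8.99, 8.86, 8.92 and 9.32 in young cultured and 8.66, 9.00, 9.15 and 9.11 in old cultured cells. The groups lay far apart, a 7.95-fold rise (2.99 ± 0.14, adjusted p 4.54e-12). Wdr12 forms the PeBoW complex with Pes1 and Bop1, which rose less, by 1.14 ± 0.08 and 0.78 ± 0.10. Rrs1, a 60S assembly factor, rose by 2.54 ± 0.08 (adjusted p 2.63e-14), the smallest adjusted p of all members, and Ebna1bp2, whose yeast counterpart binds that of Rrs1, rose by 1.37 ± 0.08. Nop16 rose by 1.76 ± 0.09, Noc2l by 1.42 ± 0.09, and the helicases Ddx18 and Ddx56 by 0.94 ± 0.06 and 0.72 ± 0.06. Nop2, an rRNA methyltransferase, was lowest of the group: 7.57, 6.99, 7.36 and 6.91 in young in vivo, 7.53, 7.04, 7.61 and 6.95 in old in vivo, 7.82, 7.76, 7.87 and 8.02 in young cultured and 7.57, 7.67, 7.89 and 7.87 in old cultured cells. Its lowest cultured array reached into the fresh range, and the difference was 0.56 ± 0.11 (adjusted p 0.000275). Nop2 and Utp18 thus carry the same E-box with differences of 0.56 and 2.23, and the median difference was 1.14 in the 5 members with the E-box and 1.15 in the 29 without it. It was 0.73 in the 3 members with TCGCGAGA and 1.31 in the 31 without it, and 1.42 in the 7 members with CCGGAAGT and 1.03 in the 27 without it. Each set is small, the ranges with and without a motif overlap, and these differences were not tested.

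The abundant multifunctional nucleolar proteins split. Ddx21, a helicase that acts at ribosomal DNA and on snoRNAs, was at 8.38, 7.76, 7.77 and 7.66 in young in vivo, 8.09, 8.17, 8.11 and 8.29 in old in vivo, 9.24, 9.55, 9.47 and 9.62 in young cultured and 9.15, 9.45, 9.73 and 9.68 in old cultured cells. Its groups did not overlap, and it rose by 1.46 ± 0.11 (adjusted p 1.81e-09). Npm1 (nucleophosmin), a chaperone of ribosomal proteins and histones, rose by 0.41 ± 0.05. Ncl (nucleolin), which binds the precursor rRNA, was the exception: 8.41, 8.62, 8.09 and 7.98 in young in vivo, 8.60, 8.17, 8.35 and 7.68 in old in vivo, 7.85, 7.88, 8.17 and 8.13 in young cultured and 7.40, 7.86, 8.04 and 8.22 in old cultured cells. The fresh and cultured arrays overlapped widely, and the difference was −0.29 ± 0.14 (adjusted p 0.0633). Ncl passed as lower when arrays were scaled to their 75th percentile (−0.49, adjusted p 0.00431) or by cyclic loess (−0.60, adjusted p 0.00240), when the lower and higher numbers in the array titles were a block (−0.29, adjusted p 0.0155), and in 3 of the 16 fits that left out 1 array: young in vivo replicate 4, old in vivo replicate 4 or old cultured replicate 4. Over these 16 fits its difference ran from −0.38 to −0.21. Only 1 probe set on the array is annotated to Ncl alone, and probe sets with several gene symbols were not used.

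Other probe sets of the same genes gave the same direction in most cases. The 40 members had 70 probe sets, 67 of them with a culture difference above 0, and 23 of the 25 members with several probe sets had the same sign in all. Noc4l was mixed, with differences of 1.49, 0.52 and −0.10, the last from the probe set that remained when those with suffix _x_at or _s_at were left out (adjusted p 0.209). Utp18 had a dim second probe set at 0.00. The size depended more on the probe set: Npm1 gave 0.41 and 2.22, Wdr12 gave 2.99 and 0.59, Nolc1 gave 0.60 and 1.80, Wdr43 gave 1.65 and 2.96, and Dkc1 gave 1.66 and 2.92.

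Other genes of the pathway, 107 on the array and 106 of them tested, moved with the members: 92 rose, 2 fell and 12 did not pass, with a median of 0.95. The 6 largest differences were those of Exosc9, a subunit of the rRNA-trimming exosome (2.65 ± 0.06), Rrn3, which recruits RNA polymerase I to its promoter (2.26 ± 0.10), the 60S factors Rpf2 (2.24 ± 0.13), Gnl3l (2.08 ± 0.10) and Nifk (2.05 ± 0.10), and the processome protein Utp4 (2.08 ± 0.08). Those that fell were Nop53 (−0.61 ± 0.10) and Rpf1 (−0.44 ± 0.08), both 60S factors. By role, 26 of 27 other processome genes, 5 of 5 other late 40S genes, 35 of 41 other 60S genes and 14 of 15 genes of rRNA cleavage and the exosome rose. Of the other RNA polymerase I transcription genes, 7 of 12 rose, with a median of 0.39, and Ubtf, which binds ribosomal DNA, did not pass (−0.16 ± 0.08, adjusted p 0.0784).

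The Myc and Max network, which regulates many ribosome biogenesis genes, was measured for 9 of 10 genes. Myc itself was at 8.21 to 8.79 on the fresh and 8.74 to 9.40 on the cultured arrays, ranges that touch, and rose by 0.57 ± 0.09 (adjusted p 3.15e-05). Mxd3, of the repressor family, rose by 0.82 ± 0.06 and Mlx by 0.65 ± 0.11. The other repressors Mxd1 (−1.73 ± 0.10), Mxd4 (−1.02 ± 0.11), Mxi1 (−0.97 ± 0.12) and Mnt (−0.66 ± 0.07) fell and had the 4 smallest differences of all pathway genes listed. Mycn fell (−0.50 ± 0.07), and Mycl did not pass (−0.06 ± 0.08, adjusted p 0.496).

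The genes for the proteins of cytosolic ribosomes moved less than the biogenesis genes. Of 37 cytosolic ribosomal protein genes, 26 rose and 2 fell, with a median of 0.22, and 2 rose at least 2-fold, against 22 of 40 biogenesis genes. Of 37 mitochondrial ribosomal protein genes, 32 rose and 3 fell, with a median of 0.99, and 17 rose at least 2-fold. Among all genes tested 34.8% rose, 44.7% fell and 13.3% rose at least 2-fold. The difference between these lists was not tested.

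**Figure D3:**
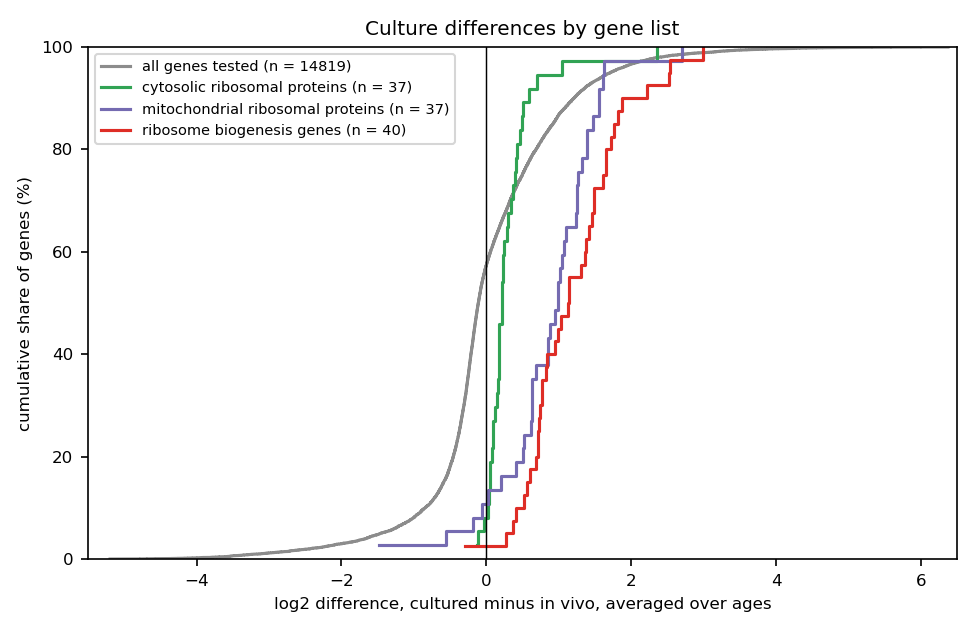
Cumulative share of genes (vertical axis, percent) against the log2 difference between cultured and fresh cells averaged over ages (horizontal axis), for all genes tested and 3 lists. The curve of the 40 ribosome biogenesis genes (median 1.14) lies right of the cytosolic ribosomal proteins (median 0.22) and close to the mitochondrial ones (median 0.99).

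Differences between ages in fresh cells were small beside those with culture. Old fresh cells had higher values than young fresh cells for 34 of 40 members, against 53.0% of all genes, with a median difference of 0.20 (all genes 0.015). The mean over all members was 7.25 to 7.37 on the young and 7.46 to 7.59 on the old arrays, which did not overlap. One member, Rrs1, passed the adjusted threshold as higher, where 0.911% of all genes passed as higher and 0.439% as lower. That background rests on 200 genes and ranged from 60 without young in vivo replicate 2 to 306 without old in vivo replicate 1. At an unadjusted p under 0.05, passed by 15.0% of all genes, 9 members were higher and none lower. With arrays scaled to their 75th percentile, 30 of 40 members were above 0 (39.1% of all genes), and with cyclic loess again 30 (52.1% of all genes).

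Rrs1 was at 7.42, 7.28, 7.19 and 7.08 on the young fresh arrays and at 7.96, 7.97, 7.97 and 8.28 on the old ones. Every old array was above every young one, and the difference was 0.80 ± 0.12 (limma on the 8 fresh arrays, adjusted p 0.0118). In culture the values were 10.12, 10.07, 10.34 and 10.38 in young and 9.93, 10.11, 10.23 and 10.31 in old cells, which overlapped throughout. The age difference in culture minus that in fresh cells was −0.885 ± 0.16 (adjusted p 0.0133), so its rise with culture was 2.98 ± 0.11 in young and 2.10 ± 0.11 in old cells. Both calls held when any 1 array was left out, and both depended on the probe set. The brighter probe set used here has the suffix _x_at. The other Rrs1 probe set, which is dimmer (means of 4.05 in young and 4.47 in old fresh cells), gave an age difference of 0.42 (adjusted p 0.375) and an interaction of −0.51 (adjusted p 0.523).

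**Figure D4:**
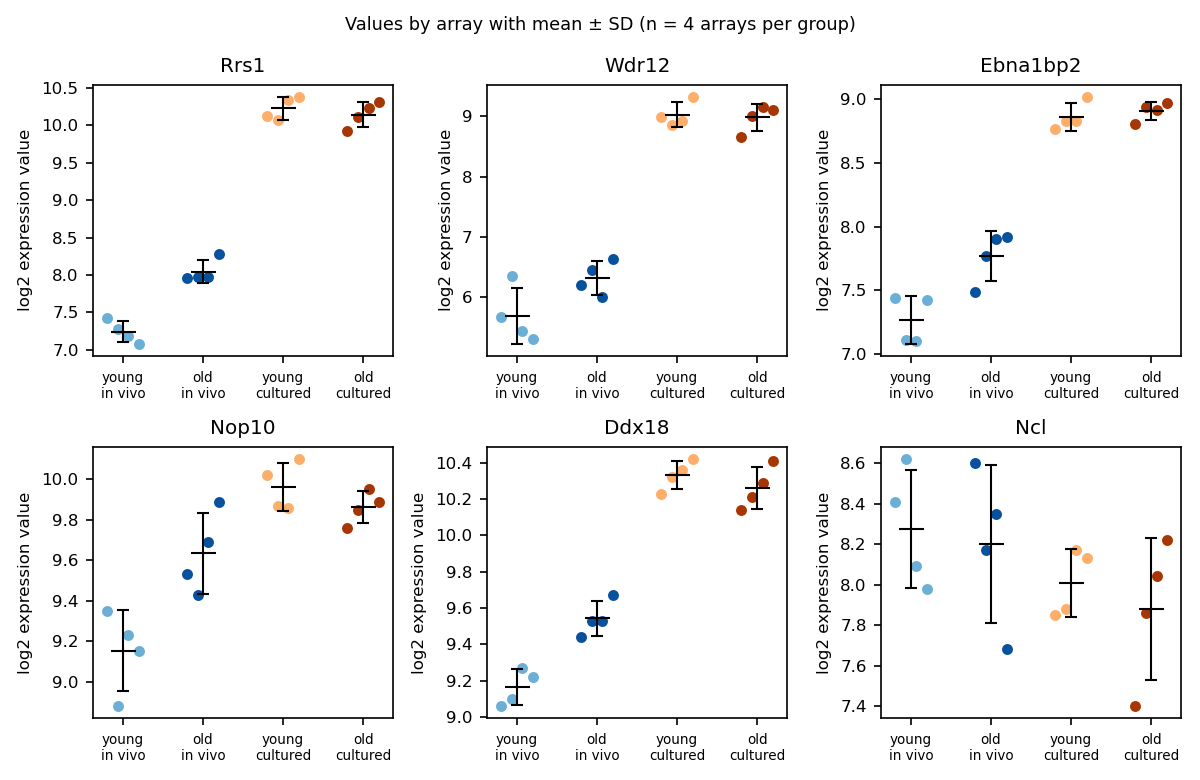
Log2 expression values by array for 6 members, with mean and SD of 4 arrays per group; the vertical axes differ between panels. Rrs1 separates the young from the old fresh arrays, while in Ncl all 4 groups overlap.

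Other members had age differences in fresh cells that did not pass. The old arrays lay wholly above the young ones for 6 members: Rrs1, Nop56, Nop10, Wdr3, Ebna1bp2 and Ddx18, while 5.80% of all genes showed this. Ebna1bp2 was at 7.44, 7.11, 7.10 and 7.42 in young and 7.49, 7.77, 7.90 and 7.92 in old cells, a difference of 0.50 ± 0.13 (adjusted p 0.0963). It passed when old in vivo replicate 1 was left out. Ddx18 was at 9.06, 9.10, 9.27 and 9.22 in young and 9.44, 9.53, 9.53 and 9.67 in old cells, a difference of 0.38 ± 0.10 (adjusted p 0.0917). Nop10 differed by 0.48 ± 0.14 (adjusted p 0.115) and Wdr12 by 0.63 ± 0.22 (adjusted p 0.193). These age differences also depended on the probe set. Ddx18 gave 0.38, 0.84 and 0.29, Ebna1bp2 gave 0.50 and −0.055, Nop10 gave 0.48 and 0.285, and Wdr12 gave 0.63 and 0.03. Nhp2 gave 0.38 on its brightest probe set and 0.825 on a dimmer one. When all 16 arrays shared one estimate of spread, Ddx18, Ebna1bp2, Nop10 and Rrs1 passed, beside 900 genes in all. By role, the 60S assembly genes had the largest median age difference (0.34) and the multifunctional nucleolar proteins the smallest (0.04), an order that was not tested.

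In the rest of the pathway, 4 of 106 genes passed as higher in old fresh cells, and none as lower. These were Utp3, a processome protein (1.05 ± 0.21, adjusted p 0.0444), and 3 exosome subunits, Exosc9 (0.76 ± 0.11, adjusted p 0.0115), Exosc8 (0.76 ± 0.15, adjusted p 0.0468) and Exosc10 (0.59 ± 0.10, adjusted p 0.0270). Exosc9 was at 6.27, 6.03, 5.91 and 6.01 in young and 6.84, 6.78, 6.70 and 6.94 in old fresh cells, which did not overlap. Values above 0 were found for 91 of these 106 genes, for 36 of 37 cytosolic ribosomal protein genes (median 0.14) and for 35 of 37 mitochondrial ones (median 0.29). None of the ribosomal protein genes passed.

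Some measures of the preparations moved with age as well. The macrophage marker Csf1r was lower in old fresh cells (−1.08), Col1a2 was lower (−0.64) and the pericyte marker Kcnj8 was higher (1.06). Each passed the threshold, alone among the 7 macrophage, 10 fibroblast and 4 pericyte markers tested. The median age difference was 0 in the macrophage, −0.044 in the fibroblast and −0.046 in the pericyte list. The fibroblast mean was 10.57 in young and 10.51 in old cells, and the pericyte mean 5.37 and 5.55. The endothelial mean was 5.06 in young and 5.26 in old cells, with overlap, and no endothelial marker passed. The macrophage marker mean was 4.73 to 4.89 in young and 4.72 to 4.76 in old cells, and the cell division mean was 5.15 to 5.43 in young and 5.31 to 5.56 in old cells, which overlap. The keratinocyte mean was 5.05 to 5.35 in young and 5.10 to 6.38 in old cells, with old in vivo replicate 1 highest. Without that array 32 of 40 members were above 0 and their median was 0.24. The part of these measures in the age differences was not tested.

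In cultured cells no member passed between ages. limma called none of the 14819 genes at an adjusted p under 0.05 (0% higher and 0% lower), while 533 (3.60%) had an unadjusted p under 0.05. Of the members, 10 were above 0, against 50.9% of all genes, and 0 were higher and 1 lower at an unadjusted p under 0.05. The median difference was −0.045 (range −0.18 to 0.19). Neither the count nor the sign of the median was stable: 20 members were above 0 without old cultured replicate 1 (median 0.0054) and 18 without young cultured replicate 4 (median −0.015), against 4 without old cultured replicate 4 (median −0.086) and 5 without young cultured replicate 1 or old cultured replicate 3. The mean over all members was 8.55 to 8.74 in young and 8.40 to 8.71 in old cultured cells. Only Polr1c separated the groups, at 10.42 to 10.48 in young and 10.49 to 10.56 in old cells, while 1.19% of all genes did so in that direction. These Polr1c ranges nearly touch, and its other probe set had a mean of 7.34 in both cultured groups.

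The age difference in culture minus that in fresh cells was below 0 for 36 of 40 members and above 0 for 4, where 47.1% of all genes were above 0, with a median of −0.24 (all genes −0.015). Rrs1 was the one member past the threshold, in the lower direction, against 0.391% of all genes lower and 0.196% higher. At an unadjusted p under 0.05, passed by 12.3% of all genes, 11 members were lower and none higher. With each of the other scalings 9 members were above 0 in place of 4. The number above 0 was 7 without old in vivo replicate 1 or old cultured replicate 1, the latter with a median of −0.16, and 6 without young in vivo replicate 1, old cultured replicate 2 or young cultured replicate 3. Of the other pathway genes, Utp3 (−1.20), Exosc8 (−0.91) and Exosc9 (−0.80) passed, all lower. These values and those for culture and age rest on the same arrays and are not independent of them.

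**Figure D5:**
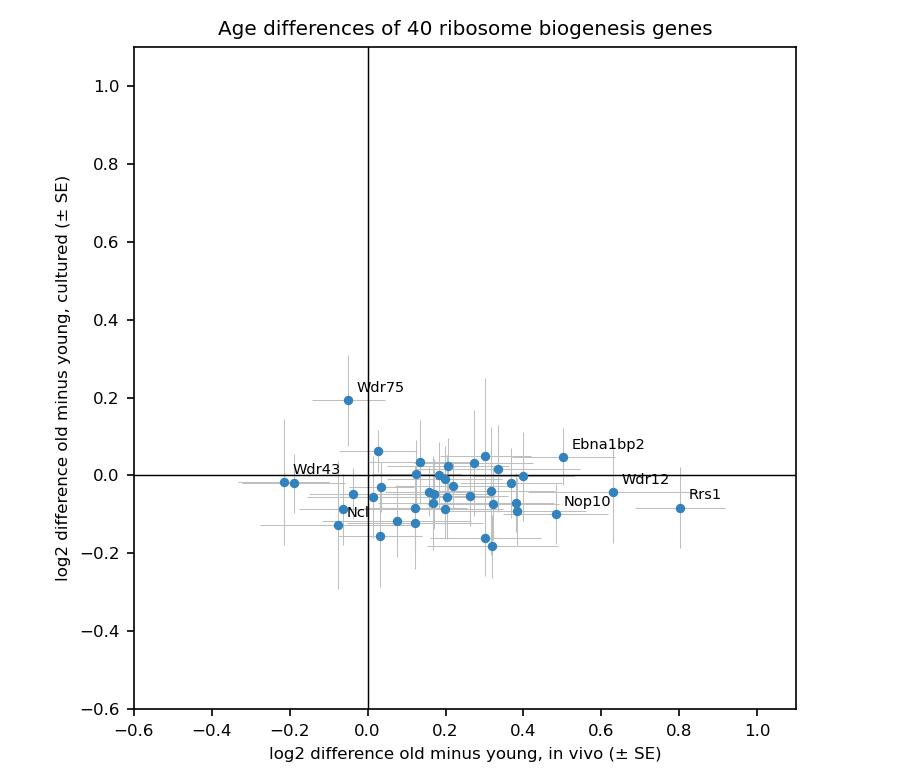
Log2 difference between old and young cells in culture (vertical axis) against that in fresh cells (horizontal axis) for the 40 members, with standard errors from limma (4 against 4 arrays each). Fresh differences spread from −0.215 to 0.80 and mostly lie above 0, while those in culture lie between −0.18 and 0.19.

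Within groups the members varied together in culture. Over the 780 pairs of members, the median Pearson r of deviations from the group means was 0.58 on the 8 cultured arrays, where 88.1% of pairs were above 0, and 0.05 on the 8 fresh arrays; the medians for all genes were 0.00 and 0.01. The cultured arrays also differed by the running numbers in their titles, whose meaning is not stated: the mean over all members was 8.40 to 8.58 on the 4 lower-numbered and 8.64 to 8.74 on the 4 higher-numbered arrays, with young and old in both. With this difference removed as well, the median r in culture was 0.41, and 83.6% of pairs were above 0. Over all 16 arrays Wdr43 (r = 0.90) and Rrs1 (r = 0.88) followed the mean of the other members most closely, and Polr1a (r = −0.25) and Polr1c (r = −0.12) least. With the difference by title number removed, r was 0.73 for Wdr43, 0.76 for Rrs1, −0.22 for Polr1a and −0.11 for Polr1c, and Nop58 was lowest (r = −0.27). The arrays may share one normalization, which no source used states, so these are descriptions. The spread itself was like that of other genes: the median residual SD was 0.20 in fresh and 0.13 in cultured cells for members, against 0.19 and 0.13 for all genes.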

How the data were processed

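Dermal fibroblasts were profiled on 16 Affymetrix arrays, 4 per group. The deposited values are log2 expression values per probe set, made by the authors with RMA and the affy package per the submitters' processing notes; no version is named there. The log base and a joint normalization of the arrays are not stated in any source used; base 2 is taken from the range of the values. Array number limits the precision. No per-sample columns were left unused (0). Of 45141 probe sets, 28898 had 1 gene symbol in the platform annotation, 551 had several and 15692 were not listed; 28689 were matched to RefSeq genes of GRCm38.p6. The probe set with the highest mean over the 16 arrays stood for a gene. Genes above 3.87, the 25th percentile of all values, on at least 4 of 16 arrays were tested.

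limma 3.58.1 (lmFit and eBayes, R 4.3.3) was run on all genes with Benjamini-Hochberg adjustment at 0.05: culture differences and the interaction on all 16 arrays with 4 group means, age differences on the 8 arrays of one condition. The script was tested on simulated data with 200 changed genes. Changes of 0.5 were recovered in 80% for culture, 21% for age in fresh cells, 58% for age in culture and 17% for the interaction. False calls made up 5.38%, 3.67%, 3.165% and 11.65% of the calls, in the same order. No block was used in these fits. Alternatives were other scalings (75th percentile, cyclic loess), other filters, other probe set rules, array weights, a shared spread and leaving out each array; a block of title-number order was added after the data were seen. Members, roles, marker and pathway lists were chosen with earlier results of these data known. Values on every array are given for the largest and smallest culture difference in each role group and for members past the threshold in an age comparison; other pathway genes are named for the 6 largest and 4 smallest culture differences, a call with age, or as upstream regulators. Ebna1bp2, Ddx18, Nop53, Rpf1 and Ubtf were named after their values were seen.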

Additional observations from a re-analysis of the deposited data

Results flagged for a closer look

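Of the 160 groups of 4 arrays formed by 40 members, 6 held 1 array set apart from the other 3 (a large gap relative to the group's range, by Dixon's criterion); chance sets apart about 1 in 20. Rrs1 on old in vivo replicate 4 was 8.28 against 7.96 to 7.97, and Mphosph10 on the same array was 6.10 against 5.76 to 5.80. Young cultured replicate 4 was high for Mphosph10 (7.38 against 7.20 to 7.23) and for Wdr75 (4.18 against 3.79 to 3.84). Nolc1 was low on young cultured replicate 1 (8.60 against 8.81 to 8.85), and Ddx21 was high on young in vivo replicate 1 (8.38 against 7.66 to 7.77).

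On its brightest probe set, the age difference of Rrs1 was not the same in fresh and cultured cells by the test of the difference itself: the interaction was −0.885 on the log2 scale (limma, adjusted p 0.0133). That probe set has the suffix _x_at. Rrs1 did not pass when _x_at and _s_at probe sets were left out, or with the mean over its probe sets.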

How the results depend on the processing

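No paired analysis was possible because no label ties a fresh sample to the cultured sample of the same mouse, and replicate numbers here follow accession order. The 39 members called higher in culture kept that direction when any 1 array was left out, with all 39 called in each of these 16 fits. Members lower in culture numbered 0, and 1 (Ncl) with 75th percentile scaling or cyclic loess averaged over ages, in young and in old cells, with the block averaged over ages, and 1 in old cells (Noc4l) when _x_at and _s_at probe sets were left out, where its difference averaged over ages turned to −0.10. Leaving out 1 array gave 0 to 1 averaged over ages and 0 to 1 in old cells.

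Members higher with age in fresh cells numbered 1, and 0 without _x_at and _s_at probe sets, 4 with a spread shared by all 16 arrays, and 1 to 2 on leaving out 1 array; with the mean over probe sets the 1 called was Ddx18, not Rrs1 (0.61, adjusted p 0.0775). Genes called with age in fresh cells numbered 200, 900 with the shared spread and 60 to 306 on leaving out 1 fresh array; each of the 8 moved the count by over 1.5 times. The interaction called 87 genes, or 44 to 200 on leaving out 1 array, lowest without young cultured replicate 4 and highest without old in vivo replicate 1; it was 161 without young in vivo replicate 1, 55 without young cultured replicate 1 or 2, 48 without old cultured replicate 2 and 53 without old cultured replicate 4. Members lower in the interaction numbered 1, and 0 with the mean over probe sets or without _x_at and _s_at probe sets, and 2 (Ddx18 and Rrs1) with the block, which was added after the data were seen. The median r among members in culture was 0.58, and 0.41 with the difference between lower and higher title numbers removed (added after the data were seen). The cause of these shifts was not tested. Probe sets near the control level of 4.34, such as that of Wdr75, can hide differences.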

Other observations

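On the cultured arrays, the mean of cell division markers was 8.89 to 9.00 on the 4 with lower title numbers and 8.52 to 8.85 on the 4 with higher ones, while the mean over all members was higher on the latter. This order was seen after the values, its meaning is unknown, and no test was made of it.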
